A study of Mus musculus with 10 samples.

Results

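The osmolyte transporters and tonicity genes described here were 6 rows of the count table, chosen by gene symbol out of 23284 genes: Slc5a3, Slc6a12, Slc6a6 and Slco4a1, which encode membrane transporters, Nfat5, which encodes a transcription factor, and Akr1b3, which encodes aldose reductase. Slc5a3, Slc6a12 and Slco4a1 were chosen for their low counts after Kdo2-lipid A at 0.03 nM, so their levels there and their differences from untreated cells and between doses are given as descriptions, with no test. All 6 passed the filter on low counts and were among the 12918 genes tested. The cells were macrophages, phagocytes that had been grown from C57BL/6J bone marrow for 6 days in 30 ng/ml M-CSF, and all groups share that culture. The libraries came from cells given 10 nM Kdo2-lipid A for 2 h or 1 h, from cells given 0.03 nM for 2 h or 1 h, and from untreated cells labelled 0 h. Kdo2-lipid A is the inner part of lipopolysaccharide and the ligand of Toll-like receptor 4 (TLR4). Each group held 2 libraries, one from each of 2 experiments, so 10 libraries in all. No untreated cells were sampled at 1 h or 2 h, so handling or time in culture and the ligand cannot be told apart in a comparison with untreated cells.

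Cells in concentrated surroundings take up or make small organic solutes, called compatible osmolytes, that hold water without disturbing proteins. Slc5a3 (SMIT1) imports myo-inositol, Slc6a12 (BGT1) imports betaine and GABA, Slc6a6 (TauT) imports taurine, and Akr1b3 makes sorbitol from glucose. NFAT5, also called TonEBP, is the factor that raises transcription of these genes under hypertonic stress, and in macrophages it also takes part in the induction of inflammatory genes by TLR ligands. Slco4a1 (OATP4A1) carries organic anions, thyroid hormones among them, and is not a classical tonicity gene. Here no change of tonicity was applied.

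The libraries held 33179599 to 42167096 counts. The ligand check was plain: Tnf, a cytokine gene of the TLR4 response, ran from 3660 to 3830 CPM (counts scaled to library size) after 1 h at 10 nM and from 130 to 187 CPM after 1 h at 0.03 nM, against 7.77 to 9.88 CPM in untreated cells. Cxcl1, a chemokine gene, ran from 698 to 832 CPM and from 12 to 12.8 CPM in those treated groups, against 0.167 to 0.265 CPM in untreated cells. The 9 macrophage markers in the table, Csf1r, Emr1 and Lyz2 among them, summed to 23900 to 32600 CPM in every library. The 9 neutrophil markers summed to 35.6 to 42 CPM after 2 h at 10 nM, against 22.8 to 29.9 CPM in untreated cells, the 6 dendritic markers to 18.3 to 18.5 CPM against 8.34 to 11.6 CPM, and the 8 lymphocyte markers to 6.87 to 7.19 CPM against 5.11 to 9.74 CPM. The 10 stromal and endothelial markers summed to 84.2 to 114 CPM in the libraries of experiment 2 and to 47 to 62.4 CPM in those of experiment 1. No marker was at 0 in all libraries, and the part of these other cells in the results was not tested. The 2 libraries after 2 h at 0.03 nM differed most from each other, with an SD of the log2 difference between experiments of 0.274 over 8126 genes, against 0.155 to 0.207 in the other groups. In that pair the difference (experiment 2 minus experiment 1) fell with exonic length (Spearman's rho -0.683 across genes, which are not independent), so long genes such as Nfat5 read lower in experiment 2.

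Because the transporter genes of inositol, betaine and organic anions were low together at 0.03 nM, the sequences around their annotated starts are shown. RefSeq windows on GRCm38.p6, from 250 bases before to 50 bases after the start, were found for 4 of the 6 genes (Slc5a3, Slc6a12, Slco4a1 and Nfat5), with 5 alternative starts for Slc6a12 and 2 for Slco4a1. The most upstream window of each of the 3 low-dose genes is printed 5′ to 3′ in lower case, with the NFAT core TGGAAA, searched on both strands, in capitals. The Slc5a3 window lies at chr16:92058072-92058371, the Slc6a12 window at chr6:121342324-121342623 and the Slco4a1 window at chr2:180455995-180456294, all on the plus strand.
Slc5a3: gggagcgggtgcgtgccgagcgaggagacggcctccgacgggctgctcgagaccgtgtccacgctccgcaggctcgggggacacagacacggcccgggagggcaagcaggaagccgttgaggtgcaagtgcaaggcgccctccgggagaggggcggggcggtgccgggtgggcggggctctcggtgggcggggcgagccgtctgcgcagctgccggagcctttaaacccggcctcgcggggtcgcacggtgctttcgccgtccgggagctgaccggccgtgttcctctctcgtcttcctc
Slc6a12: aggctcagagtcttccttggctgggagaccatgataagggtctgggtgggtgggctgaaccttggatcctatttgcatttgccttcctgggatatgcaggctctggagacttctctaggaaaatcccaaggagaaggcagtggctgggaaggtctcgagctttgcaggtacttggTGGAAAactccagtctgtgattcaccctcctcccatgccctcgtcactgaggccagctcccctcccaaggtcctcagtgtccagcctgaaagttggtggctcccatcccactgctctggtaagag
Slco4a1: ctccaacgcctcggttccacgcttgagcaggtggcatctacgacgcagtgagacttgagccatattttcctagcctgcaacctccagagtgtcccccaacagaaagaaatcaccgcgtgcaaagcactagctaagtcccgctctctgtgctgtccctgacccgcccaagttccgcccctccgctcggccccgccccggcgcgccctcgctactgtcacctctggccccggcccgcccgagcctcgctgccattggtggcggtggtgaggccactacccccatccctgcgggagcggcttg
The core occurred 1 time in this Slc6a12 window, at position 176 counted from the 5′ end, and the bases after it complete the longer TonE consensus that NFAT5 is known to bind. It did not occur in the printed windows of Slc5a3 and Slco4a1, in the Nfat5 window or in the other windows of Slc6a12 and Slco4a1. Among all 32851 windows in the table, 21.4% held the core and 4.96% held the full TonE consensus. The same Slc6a12 window held 1 match to the kappaB consensus of NF-kB, which 8.46% of all windows hold, and the printed Slc5a3 and Slco4a1 windows held none. These are matches of letters in short windows and say nothing on binding.

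Slc5a3 encodes the sodium-coupled inositol importer. In untreated cells it had 82.1 and 74.3 CPM (experiments 1 and 2), at 0.03 nM it had 30.2 and 23.9 CPM after 1 h and 24.7 and 17.7 CPM after 2 h, and at 10 nM it had 97.3 and 73.3 CPM after 1 h and 38.5 and 31.1 CPM after 2 h. The 4 libraries at 0.03 nM and the 2 libraries after 2 h at 10 nM were all below the untreated ones, while the 2 libraries after 1 h at 10 nM spanned the untreated values. In bulk RNA, fewer cells of a type and less RNA per cell cannot be told apart. The level was 2.89-fold lower after 1 h and 3.69-fold lower after 2 h at 0.03 nM than in untreated cells, and 2.25-fold lower after 2 h at 10 nM. After 1 h at 10 nM the log2 difference from untreated cells was 0.12 ± 0.19 (SE). Mean levels ordered as 10 nM 1 h, untreated, 10 nM 2 h, 0.03 nM 1 h and 0.03 nM 2 h, where the values of the first pair overlap, as do those of the last pair. Slc5a3 was higher in experiment 1 than in experiment 2 within all 5 groups, by 0.14 to 0.48 on the log2 scale, while the stromal marker sum ran the other way, and its part was not tested.

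The comparison left to test for Slc5a3 was the second hour at 10 nM, outside the libraries named in its choice. The members were chosen with earlier results of these data known, so this test may not be free of the choice. The same holds for the tests of Slc6a12 and Slco4a1 below. At 10 nM Slc5a3 averaged 34.8 ± 5.25 CPM after 2 h and 85.3 ± 17 CPM after 1 h (SD, n = 2 each). The log2 fold change was -1.29 ± 0.20 (SE), a 2.45-fold fall with an adjusted p of 0.000815 in edgeR's quasi-likelihood test, and the values of the 2 times did not overlap.

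Slc5a3 lies within a shared locus. Its exons run from 92058567 to 92087718 on the plus strand of chromosome 16 in mm9, and the first exon of Mrps6, a mitochondrial ribosomal protein gene on the same strand, covers 145 bases of the first exon of Slc5a3 (92058581 to 92058725). Those bases are 1.33% of the exonic length of Slc5a3 and 18.6% of that of Mrps6. The GRCm38 start windows of both genes share 286 of their 300 bases. Reads that fell on exons of 2 genes seem to have been counted for both, since Akr1b3 and Gm6644, which share 1352 exonic bases, had equal counts in 9 of 10 libraries and differed by 1 count in the other.

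**Figure D1:**
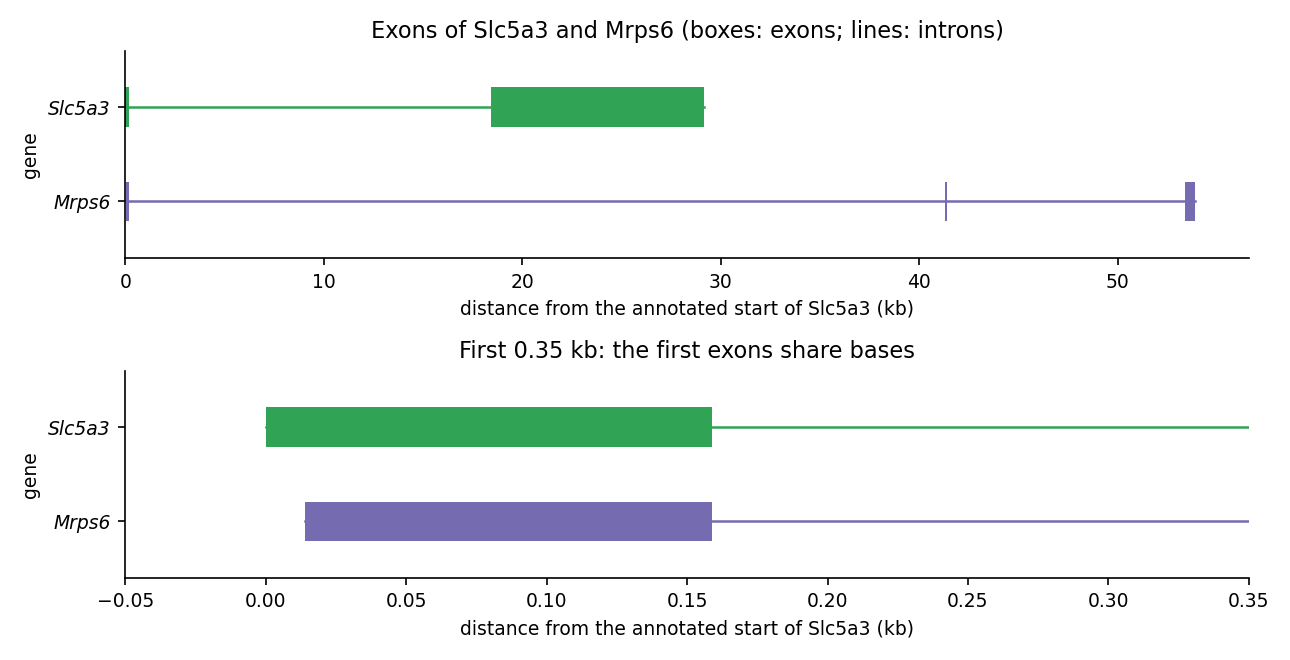
Exons of Slc5a3 and Mrps6 as boxes and introns as lines, by distance in kb from the annotated start of Slc5a3; the upper panel shows both genes whole and the lower panel the first exons. The first exons share 145 bases, and the long second exon of Slc5a3 lies in an intron of Mrps6.

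Mrps6 had 21.9 and 18.4 CPM after 1 h and 17.5 and 21.2 CPM after 2 h at 0.03 nM, against 35.3 and 33.9 CPM in untreated cells. At 10 nM it had 40.3 and 35.3 CPM after 1 h and 26 and 27.1 CPM after 2 h. Mrps6 was thus low in the same groups as Slc5a3, with smaller differences from untreated cells, of -0.78, -0.84, 0.13 and -0.38 (log2) after 1 h and 2 h at 0.03 nM and 1 h and 2 h at 10 nM. If the shared exon were covered as densely as the rest of Mrps6, it would hold 119 to 276 reads a library, which is 7.71% to 22.3% of the Slc5a3 count. With those reads taken off, a calculation chosen after seeing the data, the Slc5a3 differences were -1.62, -2.03, 0.12 and -1.26 in the same order. At the density of Slc5a3 it would hold 10 to 46 reads, which is 1.11% to 3.2% of the Mrps6 count.

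Slc6a12 encodes the betaine and GABA importer and lies on chromosome 6 from 121296715 to 121315791 on the plus strand, with 15 exons in mm9. In untreated cells it had 28.3 and 26.3 CPM, at 0.03 nM it had 12.8 and 11.1 CPM after 1 h and 12 and 13.7 CPM after 2 h, and at 10 nM it had 29.8 and 26.2 CPM after 1 h and 15.8 and 11.8 CPM after 2 h. Its levels thus formed a high set, the untreated cells and the 10 nM 1 h cells, and a low set of the other 3 groups, whose values overlapped one another. The level was 2.29-fold and 2.12-fold lower than in untreated cells after 1 h and 2 h at 0.03 nM, and 1.98-fold lower after 2 h at 10 nM. After 1 h at 10 nM the log2 difference was 0.04 ± 0.14. From 1 h to 2 h at 10 nM the change could be tested: Slc6a12 averaged 13.8 ± 2.87 CPM after 2 h and 28 ± 2.52 CPM after 1 h (SD, n = 2 each), a log2 fold change of -1.02 ± 0.14 with an adjusted p of 0.000131 (edgeR).

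Slco4a1, the organic anion transporter gene, lies on chromosome 2 from 180195683 to 180209557 on the plus strand in mm9. In untreated cells it had 64.3 and 53.9 CPM, at 0.03 nM it had 17.8 and 17.8 CPM after 1 h and 19 and 15.1 CPM after 2 h, and at 10 nM it had 192 and 152 CPM after 1 h and 46.9 and 46.7 CPM after 2 h. It was below untreated cells in all 4 libraries at 0.03 nM and above them in both libraries after 1 h at 10 nM. The differences from untreated cells were a 3.32-fold and a 3.47-fold lower level at 0.03 nM, a 2.91-fold higher level after 1 h at 10 nM, and a log2 difference of -0.34 ± 0.13 after 2 h at 10 nM. At 1 h the level was 9.66-fold higher at 10 nM than at 0.03 nM, and at 2 h it was 2.75-fold higher. Mean levels ordered as 10 nM 1 h, untreated, 10 nM 2 h, 0.03 nM 1 h and 0.03 nM 2 h, and only the values of the last pair overlap.

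During the second hour at 10 nM Slco4a1 fell by 1.88 ± 0.13 on the log2 scale, to 46.8 ± 0.146 CPM after 2 h, against 172 ± 27.8 CPM after 1 h (SD, n = 2 each), with an adjusted p of 8.15e-07 in edgeR's test. The fall was 3.68-fold and appeared in both experiments (-2.03 and -1.71). With Slc5a3 and Slc6a12, 3 of the 6 members fell in this comparison and none rose, against 21.5% of all tested genes called lower and 21.3% called higher. These 3 were chosen with earlier results of the data known, so nothing is read from the count. Scaled by library totals, which lowered the median gene by 0.19, the 3 falls were -2.07 for Slco4a1, -1.48 for Slc5a3 and -1.21 for Slc6a12, with adjusted p of 3.8e-07, 0.000327 and 3.8e-05.

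**Figure D2:**
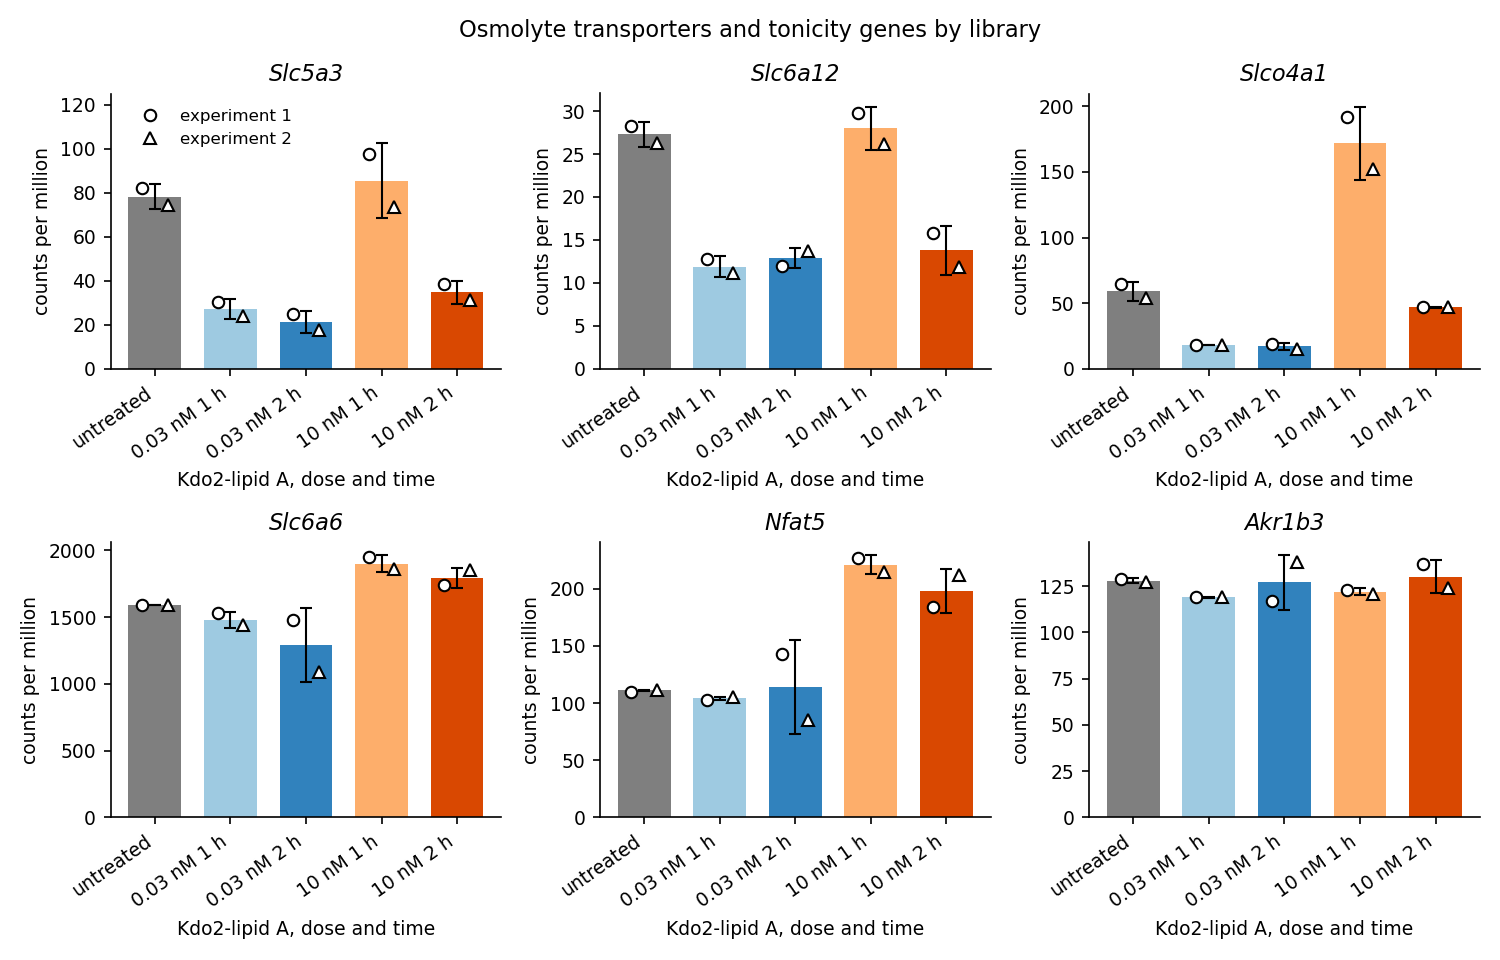
CPM (TMM-scaled, vertical axis from 0) of the 6 genes in untreated cells and at each dose and time of Kdo2-lipid A; bars are means, error bars the SD of 2 libraries, and points the libraries of experiments 1 and 2. Slc5a3 and Slc6a12 are low at 0.03 nM and after 2 h at 10 nM, Slco4a1 is low at 0.03 nM and averages 46.8 CPM after 2 h at 10 nM, against 59.1 CPM in untreated cells, while Nfat5 sits between 184 and 227 CPM at 10 nM.

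Nfat5 encodes the tonicity-responsive transcription factor and lies on chromosome 8 from 109817370 to 109903417 in mm9, with 13443 exonic bases. In untreated cells it had 110 and 111 CPM, at 0.03 nM it had 103 and 105 CPM after 1 h and 143 and 85.1 CPM after 2 h, and at 10 nM it had 227 and 215 CPM after 1 h and 184 and 212 CPM after 2 h. All 4 libraries at 10 nM were above all other libraries. Nfat5 rose 2-fold after 1 h at 10 nM (log2 1.00 ± 0.20, adjusted p = 0.00425, edgeR) and 1.79-fold after 2 h (log2 0.84 ± 0.20, adjusted p = 0.00595). Scaled by library totals, where the median gene stood 0.37 lower after 1 h and 0.56 lower after 2 h, the rise was 0.63 (adjusted p = 0.0223) after 1 h and 0.28 (adjusted p = 0.222) after 2 h. At 0.03 nM the log2 differences from untreated cells were -0.08 ± 0.20 after 1 h and 0.05 ± 0.20 after 2 h, and neither passed the test.

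Between doses, Nfat5 was 2.12-fold higher at 10 nM than at 0.03 nM after 1 h (log2 1.08 ± 0.20, adjusted p = 0.00287, edgeR) and 1.73-fold higher after 2 h (log2 0.79 ± 0.20, adjusted p = 0.0091). The difference at 2 h rests on a pair of 0.03 nM libraries that stood 0.75 apart (log2). It was 0.36 in experiment 1 and 1.31 in experiment 2, 0.69 (adjusted p = 0.0522) with the experiment 2 library after 2 h at 10 nM left out, and 0.30 (adjusted p = 0.2) scaled by library totals. With the experiment 1 library after 2 h at 0.03 nM left out, the Nfat5 difference from untreated cells after 2 h at 0.03 nM was -0.38 (adjusted p = 0.0062), and without that of experiment 2 it was 0.39 (adjusted p = 0.00801). No direction can be given for that group. The dose difference at 2 h did not pass a test against that at 1 h (interaction -0.29 ± 0.28, adjusted p = 0.546).

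Slc6a6 encodes the taurine importer and lies on chromosome 6 from 91634061 to 91709057 on the plus strand in mm9. In untreated cells it had 1590 and 1590 CPM, at 0.03 nM it had 1530 and 1440 CPM after 1 h and 1480 and 1090 CPM after 2 h, and at 10 nM it had 1950 and 1860 CPM after 1 h and 1740 and 1850 CPM after 2 h. All 4 libraries at 10 nM were above the untreated ones and all 4 at 0.03 nM below them, but no comparison with untreated cells passed the test in the fit over all libraries (adjusted p of 0.984 and 0.138 at 0.03 nM and of 0.104 and 0.22 at 10 nM, at 1 h and 2 h each, edgeR). The 10 nM result depended on the fit and the scaling. In fits of the compared groups alone Slc6a6 was called higher after 1 h (log2 0.26, adjusted p = 0.000322) and 2 h (log2 0.18, adjusted p = 0.0225). With either library of the 0.03 nM 2 h pair left out it was also called higher, at adjusted p of 0.00177 and 0.00151 after 1 h and of 0.0136 and 0.0219 after 2 h. By library totals it was called lower after 2 h (log2 -0.38, adjusted p = 0.0106), and no direction is given for it. Between doses it was 1.28-fold higher at 10 nM after 1 h (log2 0.36 ± 0.12, adjusted p = 0.03) and 1.39-fold higher after 2 h (log2 0.48 ± 0.12, adjusted p = 0.00406), values that became 0 and -0.01 when scaled by library totals. The difference at 1 h lost its call without any 1 of the 4 libraries compared, at adjusted p of 0.0719 to 0.158. The libraries after 2 h at 0.03 nM differed by 0.44 (log2), and without that of experiment 1 the fall from untreated cells was -0.54 (adjusted p = 0.00013).

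Akr1b3, the sorbitol-forming enzyme gene on the minus strand of chromosome 6 (34253930 to 34267489, mm9), had 117 to 138 CPM in all 10 libraries. It averaged 119 ± 0.214 CPM after 1 h and 127 ± 14.8 CPM after 2 h at 0.03 nM, 122 ± 1.74 CPM after 1 h and 130 ± 8.92 CPM after 2 h at 10 nM, and 128 ± 1.27 CPM in untreated cells (SD, n = 2 each). No comparison passed the test, with log2 differences of -0.11 to 0.10 and 95% intervals that reached no farther than -0.30 and 0.29. Scaled by library totals the differences from untreated cells at 10 nM were -0.43 (adjusted p = 0.00121) after 1 h and -0.53 (adjusted p = 0.000174) after 2 h, so a steady level of Akr1b3 holds only relative to the median gene. Its counts cannot be told from those of Gm6644.

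Per kb of exon, untreated levels were 258 CPM per kb for Slc6a6, 91.3 for Akr1b3, 19.1 for Slco4a1, 10.6 for Slc6a12, 8.22 for Nfat5 and 7.16 for Slc5a3. The taurine importer gene was thus the most abundant of the 4 transporter genes on the scale of CPM per kb, at the 98.2 percentile of tested genes, and the inositol importer gene the least, at the 51.1 percentile.

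**Figure D3:**
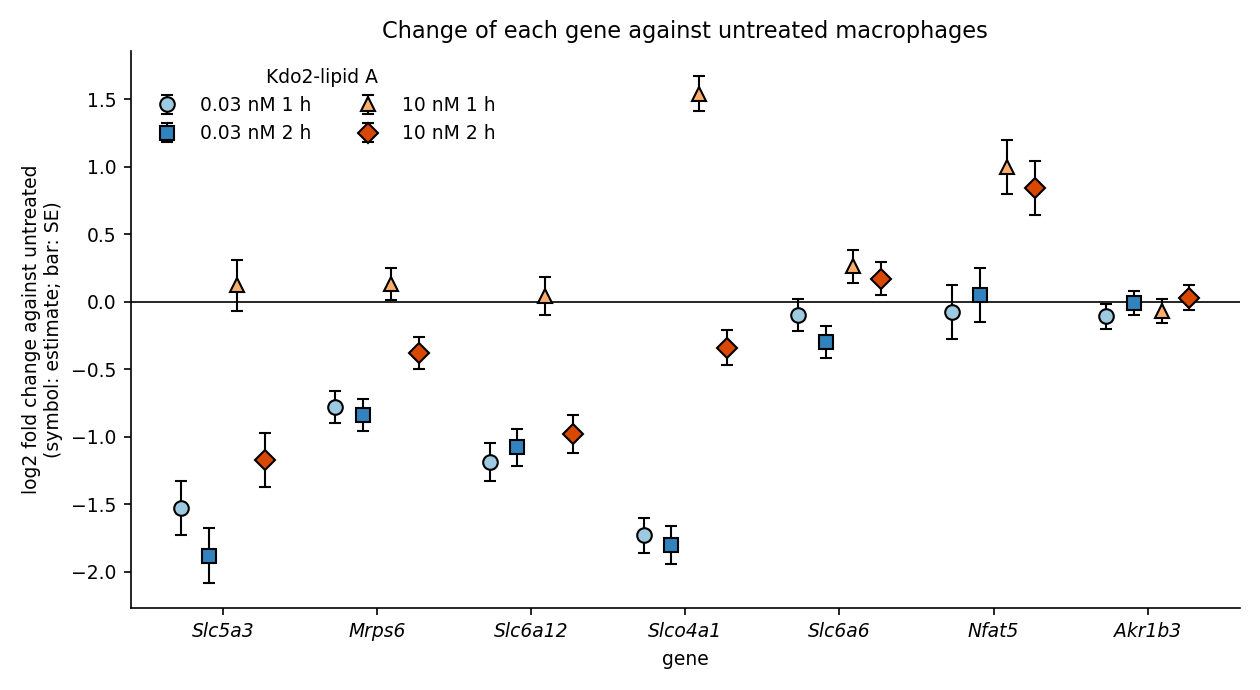
Log2 fold change of each gene against untreated macrophages (vertical axis) after 1 h and 2 h of Kdo2-lipid A at 0.03 nM and 10 nM; symbols are the estimates and bars the SE. Slc5a3, Mrps6, Slc6a12 and Slco4a1 lie below 0 at 0.03 nM, Slco4a1 reaches 1.54 after 1 h at 10 nM, and Akr1b3 stays within -0.11 to 0.03.

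Counted against untreated cells at 0.03 nM, Slc5a3, Slc6a12 and Slco4a1 were the 3 of 6 members past the threshold, all lower, after 1 h, where 0.108% of tested genes were called lower and 1.42% higher, and again after 2 h, where 3.37% were lower and 6.45% higher. They were chosen for this, so nothing is read from the count. Of the other 3 members, Nfat5, Slc6a6 and Akr1b3, 0 passed edgeR's or DESeq2's test at either time, and 1 (Slc6a6 after 2 h) had an unadjusted p under 0.05. Nfat5 after 2 h at 0.03 nM was -0.38 (log2) with the experiment 1 library of that group left out and 0.39 with that of experiment 2 left out. Slc6a6 at that time ran from -0.54 to -0.09 with 1 library left out. At 10 nM, 1 of these 3 members, Nfat5, was called higher and 0 lower after 1 h, with 18.5% of tested genes higher and 18.3% lower, and the same after 2 h, with 28.6% higher and 30.1% lower. By library totals, Nfat5 was called higher and Akr1b3 lower after 1 h, and after 2 h 0 were higher and 2 lower (Slc6a6 and Akr1b3). The median log2 difference over all 6 genes was -0.65, -0.69, 0.19 and -0.16 in these 4 comparisons, and that over all tested genes 0, 0, -0.02 and -0.03. The chosen 3 are among the 6, so nothing is read from the medians at 0.03 nM. All 4 comparisons share the untreated libraries.

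Between doses, 2 of the 3 members not chosen for their low-dose values, Nfat5 and Slc6a6, were called higher at 10 nM than at 0.03 nM and 0 lower, both after 1 h, with 18% of tested genes higher and 17.3% lower, and after 2 h, with 25.6% higher and 27.2% lower. These counts depend on the scaling: by library totals Nfat5 was called higher after 1 h only (log2 0.73, adjusted p = 0.0128, edgeR), Slc6a6 at neither time, and Akr1b3 was called lower after 1 h (log2 -0.32, adjusted p = 0.00848) and after 2 h (log2 -0.45, adjusted p = 0.000658). The median log2 differences over all 6 genes were 1.16 and 0.60, and those over all tested genes -0.01 and -0.03. Of the 6, 3 were chosen for low values at 0.03 nM, so nothing is read from these medians. As a description, Slc5a3 was 3.15-fold higher at 10 nM after 1 h and 1.64-fold higher after 2 h, and Slc6a12 was 2.34-fold and 1.07-fold higher. With library totals as the scale the Slc5a3 differences were 1.30 and 0.23 (log2), those of Slc6a12 0.87 and -0.39, and those of Slco4a1 2.91 and 0.97. Between 2 h and 1 h at 0.03 nM, 0 of 6 genes were called by edgeR or by DESeq2, and 0 had an unadjusted p under 0.05, with 3.51% of tested genes higher and 1.59% lower. Leaving out the experiment 1 library after 2 h at 0.03 nM gave 2 calls, Slc6a6 at -0.44 and Nfat5 at -0.29, and leaving out that of experiment 2 gave 1, Nfat5 at 0.47. The log2 values ran from -0.35 for Slc5a3 to 0.13 for Nfat5. In the interaction of dose and time, Slc5a3, Slc6a12 and Slco4a1 had values of -0.94, -1.13 and -1.81, and over all tested genes 10.4% were called higher and 11.6% lower.

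The wider tonicity programme was read from lists of genes made from general knowledge, after the members were chosen. Of the 15 tonicity genes that NFAT5 is known to control, 13 were tested, and 2 of those, Slc5a3 and Slc6a12, are among the low-dose genes above. Of the other 11, Sgk1 was called higher and 0 lower after 1 h at 0.03 nM, where 1.42% of tested genes were higher and 0.108% lower, and 3 were called higher (Sgk1, Hspa1a and Hspa1b) and 2 lower (Slc38a2 and Pnpla6) after 2 h, where 6.45% were higher and 3.37% lower. Each of these calls was lost with some 1 library left out: the highest adjusted p was then 0.0909 for Sgk1 after 1 h and, after 2 h, 0.145 for Sgk1, 0.226 for Hspa1a, 0.0943 for Hspa1b, 0.0606 for Slc38a2 and 0.111 for Pnpla6. The number of the 13 called after 2 h ran from 2 to 9. The median log2 differences at 0.03 nM over the 13 genes, the chosen Slc5a3 and Slc6a12 among them, were -0.10 and -0.30. Those over all tested genes were 0 and 0, and nothing is read from the difference. After 1 h at 10 nM, 4 of the 13 were called higher and 1 lower (scaled by library totals, 4 and 4), against 18.5% and 18.3% of tested genes, with a median log2 difference of 0.04. Slc38a2 (SNAT2), a neutral amino acid importer gene induced by hypertonic stress, averaged 368 ± 47.9 CPM there, against 219 ± 0.732 CPM in untreated cells (log2 0.74 ± 0.13, adjusted p = 0.000947, edgeR). After 2 h at 10 nM it averaged 109 ± 7.51 CPM and was called lower than in untreated cells (log2 -1.01, adjusted p = 4.93e-05), and the change from 1 h to 2 h was -1.76 (adjusted p = 2.04e-06). At 0.03 nM Slc38a2 averaged 159 ± 5.68 CPM after 1 h, which did not pass the test, and 140 ± 29.7 CPM after 2 h (log2 -0.65, adjusted p = 0.00859).

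Sgk1, a salt- and volume-regulated kinase gene, rose to 363 ± 11.2 CPM after 1 h at 10 nM, against 77.6 ± 7.88 CPM in untreated cells (log2 2.23, adjusted p = 1.34e-08, edgeR), and averaged 117 ± 9.88 CPM after 2 h. At 0.03 nM it averaged 127 ± 16.4 CPM after 1 h (log2 0.71, adjusted p = 0.00383) and 109 ± 3.94 CPM after 2 h. Hspa1a and Hspa1b, inducible HSP70 genes, averaged 25.7 ± 0.616 and 57.9 ± 4.03 CPM after 1 h at 10 nM, against 1.01 ± 0.0424 and 2.21 ± 0.425 CPM in untreated cells. The Hspa1a and Hspa1b sequences are nearly identical, so the split of reads between them is uncertain. Pnpla6, which encodes the phospholipase that forms the osmolyte glycerophosphocholine, was called lower after 1 h (log2 -0.50, adjusted p = 0.0026) and 2 h (log2 -1.57, adjusted p = 1.74e-07) at 10 nM. After 2 h at 10 nM, 3 of the 13 were called higher and 5 lower (scaled by library totals, 2 and 8), against 28.6% and 30.1% of tested genes, and Slc5a3 and Slc6a12 were among the 5.

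**Figure D4:**
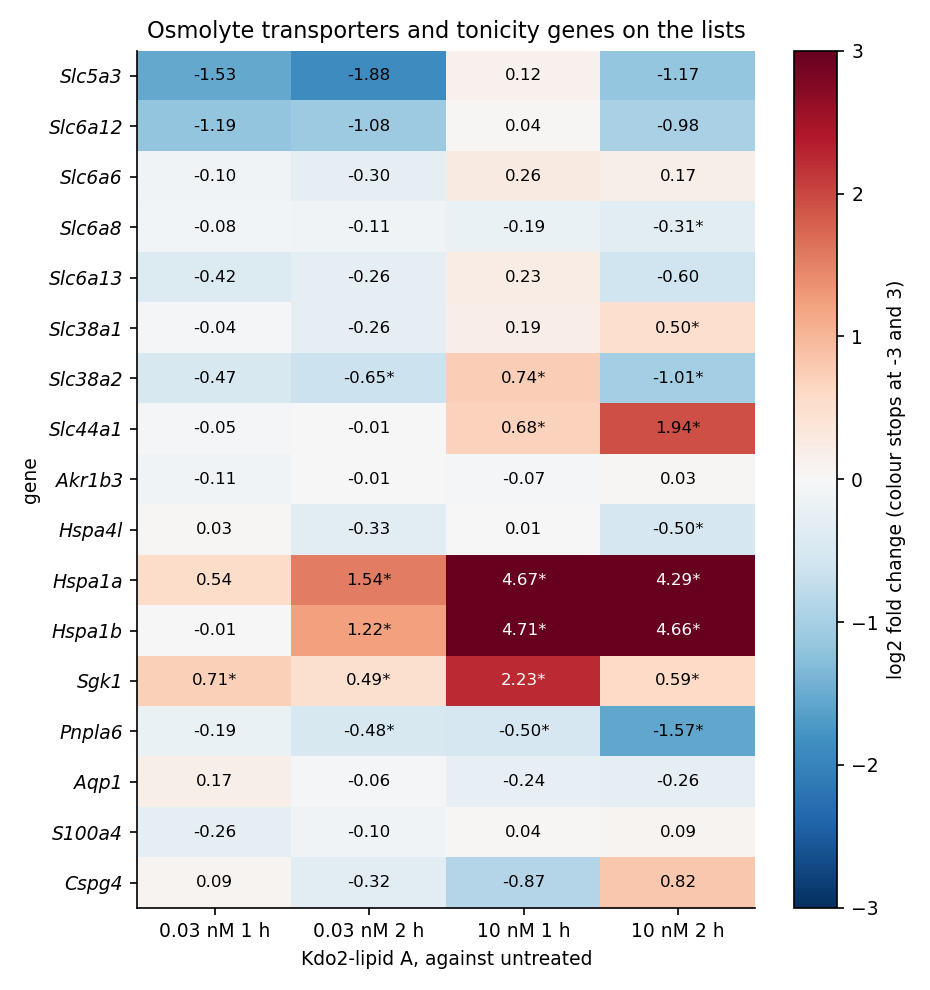
Log2 fold change against untreated macrophages of the tested organic osmolyte transporter and tonicity genes (rows) after 1 h and 2 h of Kdo2-lipid A at 0.03 nM and 10 nM (columns), with the value in each cell; a star marks an adjusted p under 0.05 (edgeR), not given for Slc5a3 and Slc6a12. Slc38a2 is 0.74 after 1 h and -1.01 after 2 h at 10 nM, and Hspa1a and Hspa1b exceed 4 at 10 nM.

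Of 11 organic osmolyte transporter genes, 8 were tested. After 1 h at 10 nM, 2 were called higher and 0 lower (2 and 1 scaled by library totals), where 18.5% of tested genes were higher and 18.3% lower. After 2 h, 2 were higher and 4 lower (1 and 6), where 28.6% were higher and 30.1% lower, and 2 of the 4 were the chosen Slc5a3 and Slc6a12. The 2 higher after 1 h were Slc38a2 and the choline transporter gene Slc44a1, which averaged 104 ± 2.3 CPM after 1 h and 249 ± 5.81 CPM after 2 h at 10 nM, against 64.9 ± 5.95 CPM in untreated cells (log2 0.68 and 1.94, adjusted p = 0.000492 and 3.61e-08, edgeR). The creatine transporter gene Slc6a8 was called lower after 2 h at 10 nM (log2 -0.31, adjusted p = 0.00418). Slc5a11, Slc2a13 and Slc6a20a, with 46, 7 and 6 counts over all libraries, were not tested. Median log2 differences over the 8 genes were -0.26 and -0.28 at 0.03 nM and 0.21 and -0.45 at 10 nM, at 1 h and 2 h each. The medians over all tested genes were 0, 0, -0.02 and -0.03 in the same order. The chosen Slc5a3 and Slc6a12 are among the 8, so nothing is read from the medians at 0.03 nM.

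Of 19 genes that make or break down osmolytes, 16 were tested, and 0 higher and 6 lower were called after 2 h at 10 nM (0 and 14 scaled by library totals), against 28.6% and 30.1% of tested genes, Pnpla6 and the inositol phosphatase gene Inpp1 (log2 -1.05, adjusted p = 0.000456, edgeR) among them. At 0.03 nM the median log2 differences over the 16 genes were -0.07 after 1 h and -0.06 after 2 h. Of 22 cell volume genes, 19 were tested, and 9 higher and 3 lower were called after 2 h at 10 nM (4 and 9 scaled by library totals), against the same 28.6% and 30.1%. Slc12a4, a potassium-chloride cotransporter gene, averaged 224 ± 6.52 CPM there, against 63.7 ± 1.93 CPM in untreated cells (log2 1.81, adjusted p = 2.17e-08). Lrrc8c and Lrrc8d, which encode subunits of the volume-regulated anion channel that releases taurine from swollen cells, were called higher (log2 2.53 and 0.64, adjusted p = 1.71e-08 and 1.86e-05). Trpv4 was called lower (log2 -0.80, adjusted p = 2.55e-05). Scaled by library totals, Lrrc8c was 1.97 and Trpv4 -1.36, while Lrrc8d was 0.09 and lost its call (adjusted p = 0.346).

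In the transporter families of the members, few genes had counts. Of 15 SLCO genes 5 were tested. After 2 h at 10 nM 2 were called higher and 2 lower (2 and 2 scaled by library totals), against 28.6% and 30.1% of tested genes. The 2 lower were Slco2b1 (log2 -1.11, adjusted p = 1.16e-05, edgeR) and the chosen Slco4a1. Slco3a1 (log2 1.22, adjusted p = 0.000707) and Slco5a1 (log2 1.85, adjusted p = 0.00696) were higher, at 0.66 and 1.30 by library totals. Slco5a1 averaged only 0.783 CPM there. Of 13 SLC5 genes 2 were tested, Slc5a3 and the vitamin transporter gene Slc5a6. At 10 nM Slc5a6 was called lower after 1 h (log2 -1.01, adjusted p = 0.000405, edgeR) and 2 h (log2 -1.55, adjusted p = 8.69e-06), where 18.3% and 30.1% of tested genes were lower. Of 19 SLC6 genes 7 were tested, and beside the chosen Slc6a12, Slc6a8 was called lower after 2 h at 10 nM, where 30.1% of tested genes were lower.

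Among the 5 NFAT genes, all tested, Nfat5 was the 1 called higher after 1 h at 10 nM, where 0 were lower, against 18.5% and 18.3% of tested genes. After 2 h, where 28.6% of tested genes were higher and 30.1% lower, Nfat5 was called higher and 3 others lower, Nfatc2 with the smallest adjusted p (39.4 ± 8.36 CPM, against 92.3 ± 6.49 CPM in untreated cells; log2 -1.23, adjusted p = 2.69e-06, edgeR). Scaled by library totals, 1 was higher and 3 lower after 1 h and 0 and 3 after 2 h, and with 1 library left out 2 to 4 of the 5 were called after 2 h. Of 18 kinases and partners known to act on NFAT5, 6 were called higher and 2 lower after 1 h at 10 nM (4 and 8 scaled by library totals), against 18.5% and 18.3% of tested genes, and 7 and 4 after 2 h (4 and 9), against 28.6% and 30.1%. Map2k3, which encodes an activator of the kinase p38, rose to 276 ± 8.93 CPM after 1 h and averaged 348 ± 9.38 CPM after 2 h, against 79.2 ± 1.72 CPM in untreated cells (log2 1.80 and 2.13, adjusted p = 2.57e-08 and 3.17e-09). The kinase gene Abl1 was called lower after 2 h (log2 -1.60, adjusted p = 1.77e-08).

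All 5 inflammatory genes known to depend on NFAT5 under TLR stimulation (Tnf, Il6, Il12b, Nos2 and Traf1) were called higher after 1 h and after 2 h at 10 nM, where 18.5% and 28.6% of tested genes were higher. At 0.03 nM 2 of them were called higher after 1 h and 4 after 2 h, where 1.42% and 6.45% of tested genes were higher. With 1 library left out the count after 1 h ran from 1 to 4 (Il12b reached an adjusted p of 0.0786, edgeR) and that after 2 h from 4 to 5. Traf1, a TNF receptor signalling gene, averaged 213 ± 26.4 CPM after 1 h and 341 ± 25.7 CPM after 2 h at 10 nM, and 15.2 ± 4.52 and 53.1 ± 14.2 CPM at 0.03 nM, against 9.08 ± 0.416 CPM in untreated cells. Il12b, the p40 subunit gene of interleukin 12, averaged 228 ± 8.51 and 358 ± 12.9 CPM at 10 nM and 1.24 ± 0.114 and 4.24 ± 0.621 CPM at 0.03 nM, against 0.515 ± 0.0213 CPM in untreated cells. The 5 genes were listed as genes that TLR ligands induce, and Tnf is also the ligand check above. Their calls were thus set by that choice, and the part of NFAT5 was not tested.

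The tested genes whose log2 CPM followed the low-dose genes most closely over the 10 libraries, by Pearson's r, were Uhrf2 (0.96), B3galnt2 (0.959) and G6pdx (0.943) for Slc5a3, Atp6v1b2 (0.973), Abcb4 (0.973) and Tfrc (0.962) for Slco4a1, and Cyb5 (0.972), Pvrl1 (0.959) and Ctsk (0.947) for Slc6a12. Their ranges were narrower. Uhrf2, a ubiquitin ligase gene, averaged 77.3 and 73 CPM after 1 h and 2 h at 0.03 nM and 89.8 and 81.2 CPM at 10 nM, against 85.5 CPM in untreated cells. Abcb4, a phospholipid transporter gene, averaged 44.7 and 46.4 CPM at 0.03 nM and 71.6 and 53.5 CPM at 10 nM, against 59.7 CPM in untreated cells. The libraries fall into groups by dose and time, so these values describe likeness over few conditions.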

How the data were processed

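RNA of bone-marrow-derived macrophages was sequenced in 10 libraries. Per the labels' protocols, polyadenylated RNA was made into libraries with the NEBNext Ultra Directional kit and sequenced on an Illumina instrument. Of tools and builds, featureCounts 1.4.5-p1, TopHat2 2.0.11, DESeq2, bcl2fastq 2.15.0.4 and mm9 stand in the submitters' processing notes, with no role given. The deposited counts are whole reads per gene over exons, and the authors' second table holds regularised log2 values (rlog) of the same genes. Exonic lengths and coordinates are those deposited with the counts. The strand setting is not given in the sources used here.

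Tests on the counts used edgeR 4.0.16 under R 4.3.3 (filterByExpr, TMM scaling, 1 quasi-likelihood model over all 10 libraries with 1 mean per group and 5 residual degrees of freedom), and p-values were Benjamini-Hochberg adjusted over all 12918 genes tested, with a threshold of 0.05. CPM values use TMM library sizes. SE values are the size of the log2 fold change divided by the square root of F. The script was tested on simulated data. The 2 libraries of a group come from separate experiments, per the labels. With 2 a group, p-values of the main fit rest on the spread between libraries, pooled over all groups and shared across genes. The spread of a group thus also bears on comparisons that do not hold it. Alternatives were RLE and total scaling, no filter, a block for the experiment, fits of the compared groups alone, DESeq2 1.42.0, limma 3.58.1 on the deposited log2 values, and each library left out.

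The members and gene lists were chosen with earlier results of these data known. Named were the 6 members, Mrps6, genes whose exons overlap a member's, from each list at most 4 called genes per comparison by smallest adjusted p, the 3 most like genes of 3 members, and Tnf and Cxcl1. Sequences are RefSeq windows on GRCm38.p6, and no coordinates were converted between builds.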

Additional observations from a re-analysis of the deposited data

Results flagged for a closer look

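Several members responded differently by dose or time. Nfat5 was 1.08 (log2) higher at 10 nM than at 0.03 nM after 1 h, in both experiments (1.14 and 1.03), with an adjusted p of 0.00287 in edgeR's test, and 0.79 higher after 2 h (adjusted p = 0.0091, edgeR). The Nfat5 difference at 2 h was 0.36 in experiment 1 and 1.31 in experiment 2. Scaled by library totals it was 0.73 after 1 h (adjusted p = 0.0128, edgeR) and 0.30 after 2 h (adjusted p = 0.2), which lost its call. Slc6a6, the taurine importer gene, was 0.36 higher after 1 h (adjusted p = 0.03, edgeR) and 0.48 higher after 2 h (adjusted p = 0.00406). Scaled by library totals the Slc6a6 differences were 0 and -0.01.

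Slco4a1 moved in opposite directions from untreated cells at the 2 doses after 1 h: higher in both experiments at 10 nM and lower in both at 0.03 nM. That difference of 3.27 was not tested, since Slco4a1 was chosen for its low-dose values. Within 10 nM, the response after 2 h differed from that after 1 h by -1.88 for Slco4a1 (adjusted p = 8.15e-07), -1.29 for Slc5a3 (adjusted p = 0.000815) and -1.02 for Slc6a12 (adjusted p = 0.000131), each by edgeR and in both experiments. The members were chosen with earlier results of these data known, so these tests may not be free of the choice.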

How the results depend on the processing

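The falls of Slc5a3, Slc6a12 and Slco4a1 from 1 h to 2 h at 10 nM and the rise of Nfat5 after 1 h at 10 nM kept direction and call in every alternative run. The members were chosen with earlier results known, and the alternatives reuse the same libraries, so they do not remove that limit. The number of members called after 2 h at 0.03 nM against untreated cells was 3 and ran from 3 to 5 with 1 library left out, and from 1 h to 2 h at 0.03 nM it was 0 and ran from 0 to 2. The pair of libraries after 2 h at 0.03 nM sets these limits. The 3 members called after 2 h at 0.03 nM were Slc5a3, Slc6a12 and Slco4a1, with 3.37% of tested genes called lower and 6.45% higher. These 3 were chosen for low values at 0.03 nM, so nothing is read from the count.

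Scaling by library totals turned the sign, in log2 units, of Nfat5 after 2 h at 0.03 nM (-0.02), of Slc5a3 (-0.24), Slc6a12 (-0.33), Slc6a6 (-0.11) and Mrps6 (-0.24) after 1 h at 10 nM, and of Slc6a6 (-0.38) and Akr1b3 (-0.53) after 2 h at 10 nM. It also turned the dose differences of Akr1b3 at 1 h (-0.32) and of Slc6a12 (-0.39), Slc6a6 (-0.01), Akr1b3 (-0.45) and Mrps6 (-0.03) at 2 h, the change of Akr1b3 over time at 10 nM (-0.09) and the interaction of Slc6a6 (-0.01). By construction it moves the median gene, here by -0.37 and -0.56 at 10 nM. Among called genes the share that was higher went to 15.9% and 19.4% at 10 nM (50.3% and 48.8% with TMM), to 15.5% and 18.4% between doses (50.9% and 48.5%), to 29.2% over time at 10 nM (49.7%), to 30.9% for the interaction (47.4%), to 48.4% after 2 h at 0.03 nM (65.7%) and to 54.1% over time at 0.03 nM (68.8%). The Akr1b3 interaction was 0.02 by RLE and by DESeq2 and 0.01 by limma, and the cause was not tested.

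With 1 library left out, signs turned for Nfat5 (-0.38 to 0.39) and Akr1b3 (-0.12 to 0.11) after 2 h at 0.03 nM, for Slc5a3 (-0.09 to 0.31) and Slc6a12 (-0.06 to 0.12) after 1 h at 10 nM, for Akr1b3 after 2 h at 10 nM (-0.04 to 0.10), and for the dose differences of Slc6a12 (-0.13 to 0.30) and Akr1b3 (-0.08 to 0.13) at 2 h. They turned over time at 0.03 nM for Slc6a6 (-0.44 to 0.01), Slco4a1 (-0.24 to 0.10), Nfat5 (-0.29 to 0.47), Akr1b3 (-0.02 to 0.21) and Mrps6 (-0.20 to 0.08), and in the interaction for Slc6a6 (-0.11 to 0.36), Nfat5 (-0.64 to 0.13) and Akr1b3 (-0.12 to 0.10).

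Over all genes, fitting only the groups compared called 658 genes after 2 h at 0.03 nM (1268 in the shared fit) and 207 over time at 0.03 nM (660), and scaling by totals called 8035 after 1 h at 10 nM (4761) and 7789 between doses at 1 h (4558). With 1 library left out the counts at 0.03 nM ran from 80 to 249 after 1 h (198), from 649 to 3153 after 2 h (1268) and from 280 to 2848 over time (660).

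Experiment numbers were checked for pairing: deviations of same-numbered libraries correlated at 0.0397 to 0.236, above 0.1 in 7 of 10 pairs. All these values are positive, and the labels give each experiment number to a library of every group. The main fit held no block for the experiment, which was run as an alternative. With a block for the replicate number, Nfat5 after 1 h at 10 nM was 1.00 (adjusted p = 0.00246, edgeR) and the fall of Slc5a3 over time at 10 nM was -1.29 (adjusted p = 1.81e-06), and none of the 54 member results changed its call.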
